A study of Homo sapiens with 18 samples.

Results

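The 33 genes described here encode the subunits of SAGA and ATAC, a pair of related coactivator complexes that put acetyl groups on histones at active genes. They were taken as the listed subunit symbols matched to the Ensembl identifiers of the gene count table, and they are 33 of the 58721 genes in that table. All 33 passed the filter on low counts, as did 21060 genes in all. They fall into 6 modules: 5 genes of the acetyltransferase module, 10 of the core, TRRAP alone, 2 of the splicing module, 6 of the deubiquitinase module and 9 that are assigned to ATAC.

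SAGA is built on a core of TAF-type and SUPT-type proteins, to which TRRAP adds the surface that activators bind. Its acetyltransferase module carries either KAT2A or KAT2B, paralogous enzymes that acetylate histone H3, together with the adaptors TADA2B and TADA3 and the reader SGF29, while its deubiquitinase module removes ubiquitin from histone H2B through USP22. ATAC shares KAT2A or KAT2B, TADA3 and SGF29 with SAGA but holds TADA2A in the place of TADA2B, and it has a further acetyltransferase, KAT14. TADA2B is therefore the adaptor that marks the acetyltransferase module as that of SAGA, and it is the gene that was knocked out here.

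RNA was sequenced from A375, an established human melanoma cell line grown in DMEM with serum. The 6 groups had 3 libraries each: cells with a guide against GFP as the control (labelled wild type), the same with SOX10 overexpression, cells with TADA2B guide 1 or guide 2 (labelled TADA2B knockout), and each of those with SOX10 overexpression. SOX10 is the transcription factor that maintains melanocyte identity. The labels do not say whether a knockout line was a clone or a pool, where in TADA2B the guides cut, which construct carried SOX10, or whether replicates were separate cultures, so the p-values measure the spread between these libraries.

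Libraries held 58573910 to 79874237 counts assigned to genes. Levels are given as CPM, each count divided by the size of its library after TMM scaling, a correction for composition, and all adjusted p-values are from edgeR's quasi-likelihood test with Benjamini-Hochberg adjustment over the 21060 genes, with 0.05 as the threshold. The scaling matters here: without it, with library size alone, the median change of all genes in the knockout moved up by 0.16 on the log2 scale, and the share of called genes that were higher went from 49.3% to 72.0%. Knockout changes below are therefore relative to the median gene, and the main calls that ended with library-size scaling are named. Summed CPM of 8 melanocyte-lineage markers was 401 to 425 in control libraries, 171 to 178 with guide 1 and 135 to 144 with guide 2, and SOX10 was the main part of the control sum. The other 7 summed to 60.7 to 61.1 CPM in control, 88.1 to 91.5 with guide 1 and 94.0 to 99.6 with guide 2. Among these MITF (log2 change 1.15) and PMEL (1.01) were called higher in the knockout, MLANA, DCT, S100B and S100A1 lower, and TYR, with 0 to 4 counts per library, was not tested. SOX10 itself had a mean of 354 ± 12.2 CPM (SD, n = 3) in control cells, 452 ± 1.57 in control cells with SOX10, 83.6 ± 3.02 with guide 1, 291 ± 13.9 with guide 1 and SOX10, 43.4 ± 3.16 with guide 2 and 246 ± 5.44 with guide 2 and SOX10. The 4 fibroblast markers summed to 4.84 to 6.37 CPM in control and 29.3 to 35.5 CPM in knockout libraries without SOX10. Of these LUM (log2 change 3.11) and COL1A1 (3.12) were called higher in the knockout, PDGFRA (-0.91) lower, and DCN (0.27) was not called. The 4 keratinocyte markers summed to 5.50 to 5.71 CPM in control, 2.11 to 2.74 with guide 1 and 1.11 to 1.52 with guide 2. KRT14 (-3.03) was called lower, KRT5 (1.92) and EPCAM (2.57) higher, and CDH1 was not tested. The 4 leukocyte markers summed to at most 0.291 CPM in any library. Mitochondrial transcripts took 0.732% to 0.996% of counts in control, 0.803% to 1.03% in control with SOX10, and 0.987% to 1.46% over the 4 knockout groups. The part of these markers and transcripts in the results was not tested.

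The subunit genes were, as a group, well expressed: the median of their mean levels was 49.2 CPM, against 6.56 CPM over all genes tested. To compare subunits with each other, CPM was divided by exon length in kilobases, taken over all annotated exons of a gene together. That length can exceed the length of the transcripts present, so the order of genes depends on it. In CPM alone SF3B3 (12419 exon bases) was the highest subunit in control cells, at 703 to 728. POLE3 (2604 exon bases) was at 210 to 219 CPM. Per kilobase the highest level in control cells was that of POLE3, a histone-fold protein of ATAC that also serves DNA polymerase epsilon, at 82.7 ± 1.74 CPM per kb (SD, n = 3). SF3B5 was at 59.5 ± 1.95 and SF3B3 at 57.3 ± 1.15, both shared with the SF3b splicing factor. USP22 followed at 55.0 ± 1.31 CPM per kb, which did not differ from SF3B3 beyond their spread. The acetyltransferase-module genes and TADA2A were lower, with TADA3 at 12.4 ± 0.293, KAT2A at 12.3 ± 0.189, KAT2B at 6.80 ± 0.193, TADA2B at 5.63 ± 0.0550, TADA2A at 5.54 ± 0.305 and SGF29 at 4.06 ± 0.275 CPM per kb. TADA2B and TADA2A, and TADA3 and KAT2A, differed by less than their spread.

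The lowest subunits were TAF10 and ATXN7. ATXN7, the subunit that anchors the deubiquitinase module, had 0.108 ± 0.0421 CPM per kb and 37 to 90 counts per library, but the annotation holds a further ATXN7 record that shares 73.8% of its exon length, and reads in the shared part may not have been assigned to either. TAF10 had 201 to 314 counts per library and overlaps ILK on the opposite strand over 38.9% of its exon length. ILK was itself at 0.376 CPM in control cells. The levels of both genes are uncertain for that reason, and neither was called in any comparison below with TMM scaling.

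The targeted gene was examined first. TADA2B (chromosome 4, 7041899 to 7057952, hg38) was at 32.8, 32.2 and 32.5 CPM in the 3 control libraries, at 26.1, 25.6 and 26.4 with guide 1, and at 28.6, 27.5 and 30.2 with guide 2. With SOX10 it was at 30.7, 30.7 and 31.7 CPM in control cells, at 23.9, 26.8 and 25.3 with guide 1, and at 27.4, 25.7 and 27.6 with guide 2. Every knockout library was below every control library of the same SOX10 state, while knockout cells kept most of the transcript. The log2 change averaged over both guides was -0.25 (SE 0.040, adjusted p = 1.16e-06) without SOX10 and -0.25 (SE 0.040, adjusted p = 1.26e-06) with it. The log2 change was -0.32 with guide 1 and -0.17 with guide 2, against the same control libraries. With library-size scaling the mean of both guides was -0.09 (adjusted p = 0.0470) without SOX10 and -0.10 (adjusted p = 0.0240) with it. The guide 2 value without SOX10 was then -0.01 (adjusted p = 0.854). A gene-level count does not show an edit or the loss of protein, so the check bears on transcript only.

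TADA2B and its ATAC counterpart TADA2A can also be compared inside each library, where no scaling enters. The ratio of TADA2B to TADA2A, per exon base, was 1.02 ± 0.0620 (SD, n = 3) in control cells, 0.794 ± 0.0589 with guide 1 and 0.859 ± 0.0527 with guide 2. With SOX10 it was 1.20 ± 0.0657 in control cells, 0.839 ± 0.0527 with guide 1 and 0.870 ± 0.0586 with guide 2. All 12 knockout libraries had ratios below those of all 6 control libraries. TADA2A itself was at 30.9, 33.2 and 29.9 CPM in control cells, at 31.1, 34.5 and 31.0 with guide 1, and at 33.3, 32.9 and 32.2 with guide 2. The groups overlapped, and it did not pass the test in the knockout without SOX10 (log2 change 0.05), but it was 0.24 higher (log2, SE 0.043, adjusted p = 7.13e-06) in the knockout with SOX10. With library-size scaling TADA2A was called higher without SOX10 as well, by 0.21 (adjusted p = 4.62e-05).

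In the knockout without SOX10, 12 of 33 subunit genes were higher and 13 lower than in control cells, and none changed as much as 2-fold. Of all genes tested, 28.6% were higher and 29.5% lower, against 36.4% and 39.4% of the subunits, and the median log2 change of the subunits was -0.02. The 24 genes of the SAGA modules held all 12 that were higher and 7 that were lower. The 9 genes of the ATAC module held none that was higher and 6 that were lower. This split depends on counting shared subunits with SAGA: TADA3, KAT2A and SGF29, which were higher, and KAT2B, which was lower, belong to ATAC as well. With library-size scaling the counts changed to 19 higher and 4 lower of the 33 subunits, where 43.3% of all genes tested were higher and 16.8% lower. All 12 higher calls stayed. Of the lower calls those of TADA2B, SF3B3, USP22 and YEATS2 stayed, that of TADA2B close to the threshold (adjusted p = 0.0470).

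**Figure D1:**
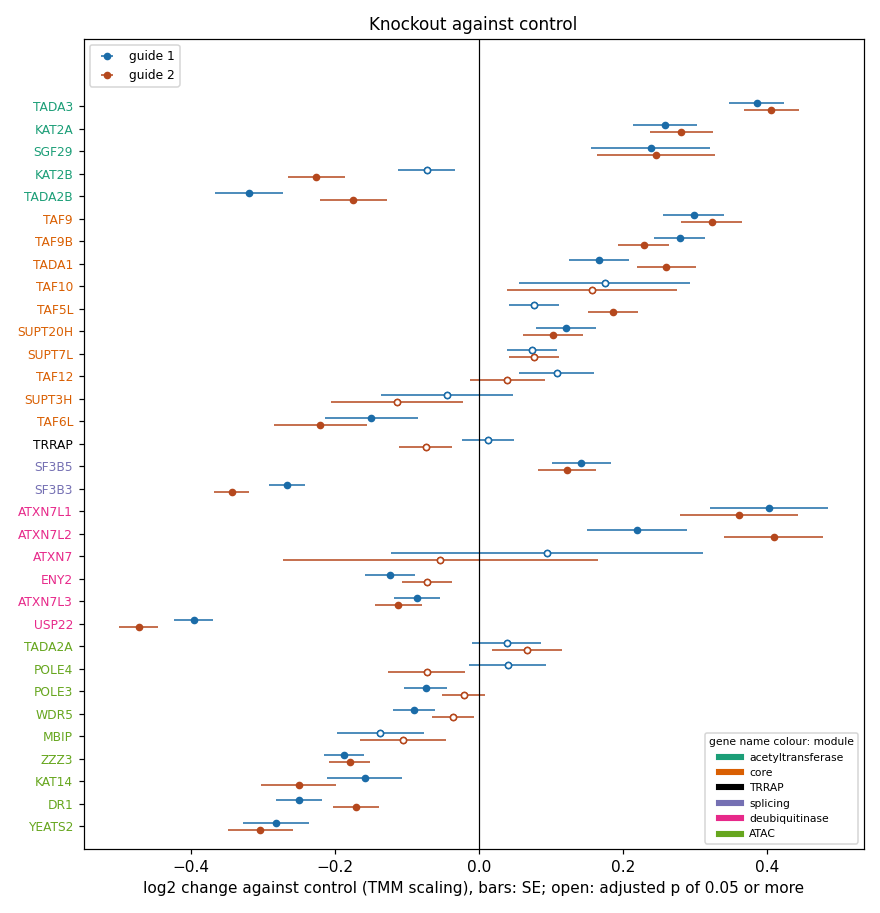
Log2 change of each of the 33 subunit genes against control for guide 1 and guide 2 (horizontal axis; points are fitted values, bars are SE, open points did not pass the test), with genes grouped by module on the vertical axis. TADA3, TAF9, TAF9B, ATXN7L1 and ATXN7L2 lie to the right and USP22, SF3B3, YEATS2 and TADA2B to the left for both guides, which share their control libraries.

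The acetyltransferase module showed 3 genes higher and 2 lower in the knockout. TADA3, an adaptor of the module shared with ATAC, was at 52.9, 50.9 and 53.1 CPM in control cells, at 72.5, 65.4 and 67.0 with guide 1, and at 71.0, 65.4 and 71.3 with guide 2. All 6 knockout libraries lay above all 3 controls. The log2 change was 0.40 (SE 0.034, adjusted p = 1.73e-13), or 1.32-fold. It was the highest value among the 33 genes for the mean of both guides, though within the SE of ATXN7L1 (0.38), and ATXN7L1 was higher with guide 1 and ATXN7L2 with guide 2. TADA3 overlaps ARPC4 on the opposite strand over 11.3% of its exon length, and ARPC4 was at 94.7 CPM in control cells and 98.3 and 101 CPM with guides 1 and 2.

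KAT2A, one of the paired catalytic subunits, was at 47.0, 46.3 and 45.6 CPM in control cells, at 56.6, 51.6 and 57.7 with guide 1, and at 58.3, 53.2 and 57.0 with guide 2. The knockout libraries were all higher than the controls, by a log2 change of 0.27 (SE 0.039, adjusted p = 1.06e-07). SGF29, the subunit that reads methylated lysine 4 on histone H3, was 0.24 higher (log2, SE 0.072, adjusted p = 0.00391), and its guide 2 replicate 2, at 9.13 CPM, was below the highest control library at 9.27 CPM. KAT2B, the other catalytic subunit, was at 39.5, 37.6 and 37.8 CPM in control cells, at 36.8, 36.1 and 36.4 with guide 1 and at 32.1, 33.9 and 32.4 with guide 2. Its log2 change was -0.15 (adjusted p = 2.74e-04), but with library-size scaling it was 0.01 (adjusted p = 0.897). With TMM scaling it was called lower with guide 2 (-0.23, adjusted p = 6.18e-06) and not with guide 1 (-0.07, adjusted p = 0.125).

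**Figure D2:**
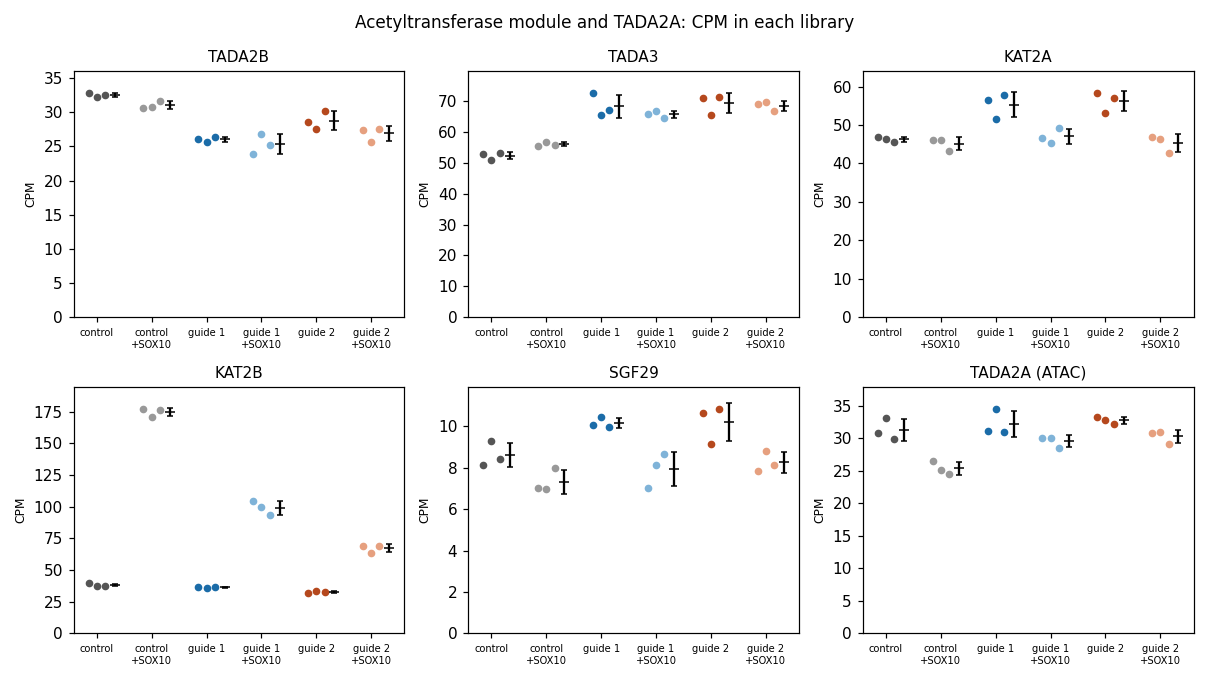
CPM after TMM scaling (vertical axis) in each of the 18 libraries for the 5 acetyltransferase-module genes and TADA2A, by group (horizontal axis); points are libraries, dashes with bars are the mean ± SD of 3. KAT2B stands at 171 to 177 CPM in control cells with SOX10 and below 40 CPM in every library without SOX10, and TADA2B is lower in the knockout groups.

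In the core, 6 of 10 genes were higher in the knockout and 1 was lower. TAF9 and TAF9B, alternative histone-fold subunits, were higher by 0.31 (log2, SE 0.037, adjusted p = 8.97e-09) and 0.25 (SE 0.031, adjusted p = 2.97e-09). TAF9 was at 76.4, 87.7 and 86.1 CPM in control cells, at 97.8, 103 and 107 with guide 1, and at 98.7, 108 and 107 with guide 2. TAF9B was at 66.2, 65.5 and 65.6 CPM in control cells, at 77.9, 81.6 and 79.8 with guide 1, and at 74.1, 80.8 and 76.4 with guide 2. The groups did not overlap for either gene. TAF9 shares 20.6% of its exon length with AK6 on the same strand and 14.7% with RAD17 on the other, and TAF9 and TAF9B have 3 and 2 annotated processed pseudogenes, so that their counts may be split.

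The other core rises were smaller. TADA1 was 0.21 higher, TAF5L, the WD-repeat subunit, 0.13, SUPT20H 0.11 and SUPT7L 0.07 on the log2 scale. SUPT7L was called with neither guide alone (adjusted p = 0.0781 with guide 1 and 0.0639 with guide 2). The calls of SUPT20H and SUPT7L did not hold in every fit that left out 1 library (largest adjusted p 0.0955 and 0.136). TAF6L, which pairs with TAF9 in the core, was the exception, at 13.9, 13.8 and 13.8 CPM in control cells, at 13.1, 12.3 and 11.9 with guide 1, and at 12.4, 11.3 and 11.9 with guide 2. Its log2 change was -0.19 (SE 0.056, adjusted p = 0.00417), and every knockout library was lower. With library-size scaling the change was -0.03 (adjusted p = 0.681). SUPT3H, TAF10 and TAF12 did not pass the test. TRRAP, at 113 to 127 CPM in control cells, had a log2 change of -0.03 and did not pass either. With library-size scaling TAF10 (0.32), TAF12 (0.23) and TRRAP (0.12) were called higher.

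The deubiquitinase module contained the largest fall among the 33 genes and also 2 of the larger rises. USP22, the ubiquitin protease itself (chromosome 17, 20999593 to 21043760), was at 369, 384 and 369 CPM in control cells, at 289, 284 and 280 with guide 1, and at 273, 266 and 270 with guide 2. All knockout libraries were below the controls. The log2 change was -0.43 (SE 0.023, adjusted p = 7.98e-20), or 1.35-fold lower, and -0.28 (adjusted p = 7.56e-14) with library-size scaling. The ratio of USP22 to ATXN7L3, the adaptor that activates it, was 2.92 ± 0.113 (SD, n = 3) in control cells, 2.36 ± 0.0600 with guide 1 and 2.28 ± 0.0648 with guide 2, per exon base. ATXN7L3 was at 99.8, 98.1 and 101 CPM in control cells, at 97.5, 91.3 and 93.1 with guide 1, and at 95.2, 88.0 and 93.5 with guide 2. ATXN7L3 was 0.10 lower on the log2 scale (adjusted p = 0.00230). ENY2, the small subunit shared with the TREX-2 export complex, was likewise 0.10 lower (adjusted p = 0.00524). But both were 0.06 higher and not called with library-size scaling. ENY2 was not called with guide 2 alone (adjusted p = 0.0776). Its call did not hold in every fit that left out 1 library (largest adjusted p 0.142).

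ATXN7L1 and ATXN7L2, paralogs of the anchor subunit ATXN7, were higher. ATXN7L1 was at 6.63, 5.97 and 7.12 CPM in control cells, at 9.02, 9.03 and 8.03 with guide 1, and at 8.35, 9.22 and 7.79 with guide 2, a log2 change of 0.38 (SE 0.072, adjusted p = 1.46e-05). ATXN7L2 was at 10.9, 10.8 and 11.2 CPM in control cells, at 13.4, 12.9 and 12.0 with guide 1, and at 15.6, 13.1 and 14.8 with guide 2, a log2 change of 0.31 (SE 0.061, adjusted p = 2.33e-05). Knockout and control libraries did not overlap for either gene. ATXN7 was at 1.33, 1.08 and 0.569 CPM in control cells, at 1.11, 0.956 and 1.12 with guide 1, and at 0.886, 0.914 and 1.07 with guide 2, with no call. Summed per kilobase over its 6 genes, the module was at 93.6 ± 1.5 in control cells, 78.5 ± 1.32 with guide 1 and 76.9 ± 0.627 with guide 2, a sum in which USP22 is the main part.

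The splicing module split. SF3B3, a large scaffold of the SF3b splicing factor that is also bound to SAGA, was at 704, 728 and 703 CPM in control cells, at 601, 592 and 582 with guide 1, and at 565, 556 and 561 with guide 2. Every knockout library was lower, with a log2 change of -0.31 (SE 0.021, adjusted p = 3.27e-16), and of -0.15 (adjusted p = 3.03e-08) with library-size scaling. SF3B5, its small partner, was at 42.2, 41.8 and 39.7 CPM in control cells, at 47.1, 44.9 and 44.5 with guide 1, and at 45.3, 42.9 and 46.2 with guide 2. It was 0.13 higher (log2, SE 0.035, adjusted p = 0.00139), again without overlap between the groups.

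Among the ATAC genes, YEATS2, which reads acetylated and crotonylated histone H3, was lower by the most. It was at 52.3, 51.5 and 49.9 CPM in control cells, at 43.9, 43.7 and 38.9 with guide 1, and at 43.2, 43.4 and 37.9 with guide 2, a log2 change of -0.29 (SE 0.039, adjusted p = 2.38e-08). The third replicate was the lowest of each knockout group, and the groups did not overlap. DR1, a histone-fold repressor that also acts with DRAP1, was 0.21 lower, KAT14, the second acetyltransferase of ATAC, 0.20, ZZZ3, its histone H3 reader, 0.18, the MAP3K-binding protein MBIP 0.12 and WDR5, shared with the histone H3 lysine 4 methyltransferases, 0.06 on the log2 scale. MBIP was called with neither guide alone (adjusted p = 0.0532 with guide 1 and 0.136 with guide 2). WDR5 was not called with guide 2 (adjusted p = 0.295). Neither call held in every fit that left out 1 library (largest adjusted p 0.263 for MBIP and 0.0869 for WDR5). TADA2A, POLE3 and POLE4 did not pass the test. Of these 6 lower calls, that of YEATS2 alone held with library-size scaling, at -0.14 (adjusted p = 0.00316), and WDR5 was then 0.09 higher (adjusted p = 0.00141). TADA2A (0.21), POLE3 (0.11) and POLE4 (0.14) were also called higher with that scaling.

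The knockout comparison was repeated in cells that overexpressed SOX10, which shares no library with the comparison above. Here 10 subunits were higher and 11 lower, where 28.2% of all genes were higher and 26.7% lower, against 30.3% and 33.3% of the subunits. Of the 33 genes, 18 were called in both comparisons, and all 18 had the same direction with TMM scaling, 8 higher and 10 lower. Over all genes, 8791 were called in both and 91.0% of these had the same direction. Of the 10 subunits lower in both, only TADA2B and USP22 were called lower in both with library-size scaling. The 8 higher in both were all called higher in both with that scaling as well. With library-size scaling 20 subunits were higher and 4 lower with SOX10, where 43.4% of all genes tested were higher and 14.8% lower. The 4 lower subunits were TADA2B, KAT2B, USP22 and TAF6L.

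**Figure D3:**
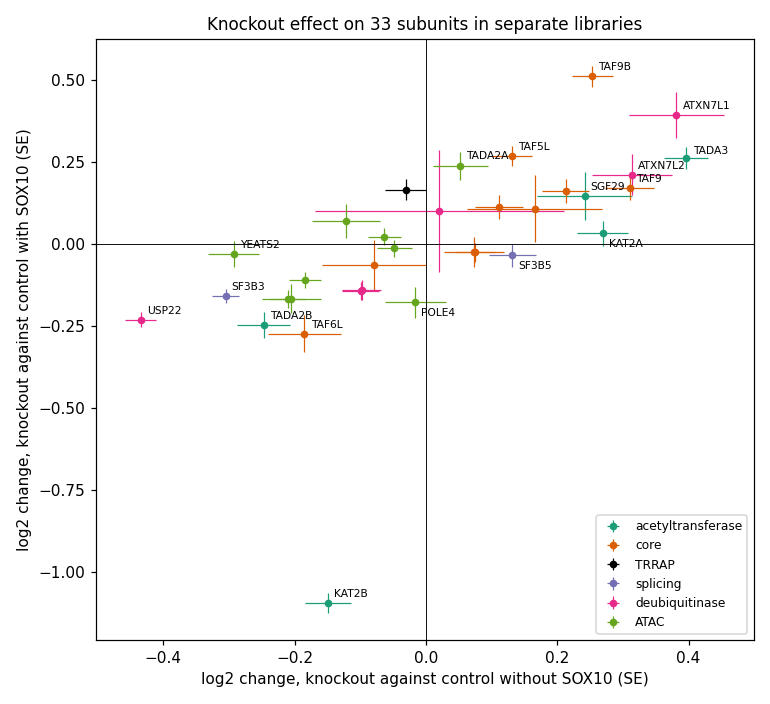
Log2 change of the 33 subunit genes in the knockout (mean of both guides) without SOX10 (horizontal axis) and with SOX10 (vertical axis), from separate libraries; bars are SE and colours are modules. TADA3, ATXN7L1, ATXN7L2 and TAF9B are high on both axes, USP22, SF3B3 and TADA2B low on both (with library-size scaling SF3B3 is at -0.02 with SOX10 and not called), and KAT2B lies apart at -0.15 and -1.09.

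Subunits called in both backgrounds with TMM scaling included TADA3 (log2 change 0.26 with SOX10), TAF9 (0.17), ATXN7L1 (0.39), ATXN7L2 (0.21), TAF6L (-0.27) and USP22 (-0.23). TAF9B was 0.51 higher (SE 0.031, adjusted p = 1.07e-17) with SOX10, where the knockout libraries stood at 76.6 to 85.5 CPM and the controls at 54.6 to 58.9 CPM. TAF5L was 0.27 higher and TRRAP 0.17 higher. KAT2A, SF3B5 and YEATS2, called without SOX10, were not called with it, at log2 changes of 0.03, -0.03 and -0.03. With library-size scaling all 3 were called higher, KAT2A by 0.17 (adjusted p = 2.03e-04) and SF3B5 and YEATS2 by 0.11 each.

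SOX10 overexpression in control cells changed 1 subunit by more than 2-fold. KAT2B (chromosome 3, 20040023 to 20154404) went from 39.5, 37.6 and 37.8 CPM to 177, 171 and 176 CPM, a log2 change of 2.19 (SE 0.038, adjusted p = 1.25e-35), or 4.56-fold. TADA3 was 0.10 higher, with adjusted p = 0.0435, and these 2 were the only subunits called higher, 6.06% of the 33 against 17.3% of all genes. Another 12 were lower, 36.4% against 17.2% of all genes, with changes between -0.08 and -0.32. Of the 65 partner genes described below, 12.3% were higher and 40% lower in the same comparison. ATXN7L2 (-0.32), TADA2A (-0.30), SGF29 (-0.23), TAF9B (-0.21) and SF3B3 (-0.16) were lower by the most. TADA2B itself was not called. The call of TADA3 ended when any 1 of the 6 libraries was left out. Of the 12 lower calls, 8 held under all alternative settings and 6 in every fit that left out 1 library. Those of USP22, ZZZ3, DR1 and POLE3 did not hold under all alternative settings. The call of SGF29 was among those that ended in a fit without 1 library.

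In knockout cells KAT2B responded to SOX10 by less. It rose to 105, 99.5 and 93.5 CPM with guide 1, a log2 change of 1.45 (SE 0.038, adjusted p = 5.27e-30), or 2.73-fold. With guide 2 it rose to 69.2, 63.7 and 68.8 CPM, a log2 change of 1.04 (SE 0.039, adjusted p = 8.50e-25), or 2.05-fold. The 3 SOX10 groups did not overlap, in the order control, guide 1, guide 2, and the control group was 2.14-fold above the mean of the knockouts (log2 change -1.09, SE 0.030, adjusted p = 1.22e-29). The interaction, the SOX10 effect in knockout cells minus that in control cells, was -0.95 for KAT2B (SE 0.046, adjusted p = 3.93e-20). SOX10 transcript followed the same order over the 3 groups, at 452, 291 and 246 CPM, and the part of that difference in the KAT2B result was not tested.

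The balance of the paired enzymes turned with SOX10. The ratio of KAT2A to KAT2B per exon base was 1.81 ± 0.0321 (SD, n = 3) in control cells, 2.27 ± 0.120 with guide 1 and 2.57 ± 0.195 with guide 2. With SOX10 it was 0.387 ± 0.0187 in control cells, 0.712 ± 0.0651 with guide 1 and 1.01 ± 0.0795 with guide 2. Per exon base KAT2A was thus the more abundant transcript in every library without SOX10, and KAT2B in all control and guide 1 libraries with SOX10. The 2 were about level per exon base in guide 2 cells with SOX10, where single libraries gave 1.02, 1.09 and 0.927. In CPM, without exon length, KAT2B was above KAT2A in those cells, at 63.7 to 69.2 against 42.7 to 47.0. The summed level of the acetyltransferase module went from 41.1 ± 0.335 to 65 ± 0.388 CPM per kb with SOX10 in control cells, from 46.6 ± 1.55 to 53.7 ± 0.342 with guide 1, and was 46.9 ± 1.91 and 48.7 ± 0.831 with guide 2, where the groups' spreads overlap.

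**Figure D4:**
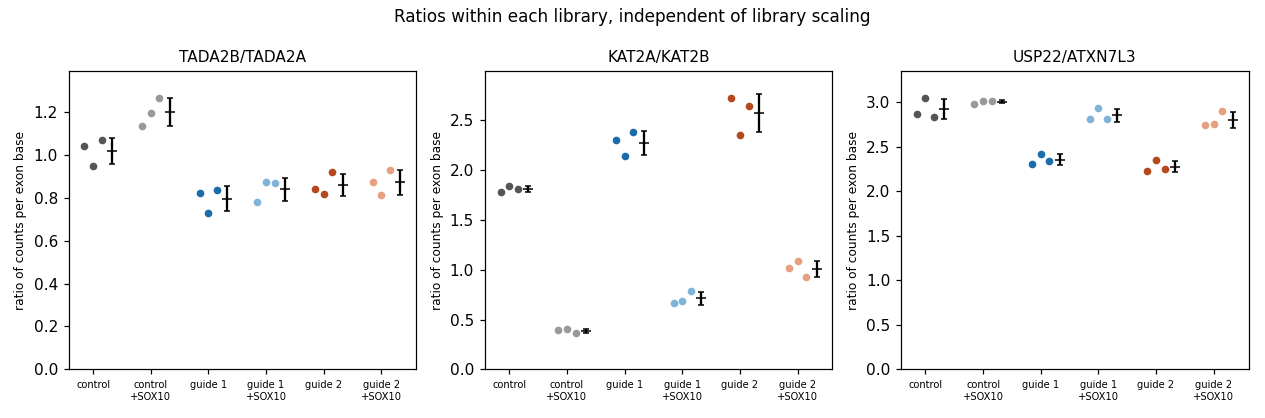
Ratios of counts per exon base within each library (vertical axis) for TADA2B to TADA2A, KAT2A to KAT2B and USP22 to ATXN7L3, by group (horizontal axis); points are libraries, dashes with bars are the mean ± SD of 3. TADA2B to TADA2A is lower in all knockout groups, KAT2A to KAT2B falls from 1.81 to 0.387 with SOX10 in control cells, and USP22 to ATXN7L3 is lowest in the knockout groups without SOX10.

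With both guides averaged, 5 subunits were higher and 12 lower with SOX10 in the knockout, which is 15.2% and 36.4% of the 33. Of all genes 28.1% were higher and 28.1% lower, and of the 65 partner genes 23.1% and 41.5%. Besides KAT2B the higher genes were YEATS2 (0.24), USP22 (0.13), ATXN7L1 (0.13) and TRRAP (0.07 on the log2 scale). ATXN7L1 was called only with guide 2 (0.29, adjusted p = 0.00209), and was -0.03 with guide 1 (adjusted p = 0.773). TRRAP was likewise called only with guide 2 (0.09, adjusted p = 0.0435), and was 0.04 with guide 1 (adjusted p = 0.377). ATXN7L1 (adjusted p = 0.0497) and TRRAP (adjusted p = 0.0292) were no longer called with library-size scaling, RLE scaling or DESeq2, and 3 genes were called higher without guide 1 with SOX10 replicate 2. The lower genes were led by ATXN7L2 (-0.42), SGF29 (-0.33), KAT2A (-0.27), TAF6L (-0.25), SF3B5 (-0.23) and POLE4 (-0.23). KAT2A with SOX10 stood at 45.5 to 49.2 CPM with guide 1 and 42.7 to 47.0 with guide 2, which overlaps its 43.2 to 46.2 CPM in control cells with SOX10. YEATS2 with SOX10 stood at 48.2 to 52.3 CPM in the knockout and 49.6 to 51.2 CPM in control cells.

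**Figure D5:**
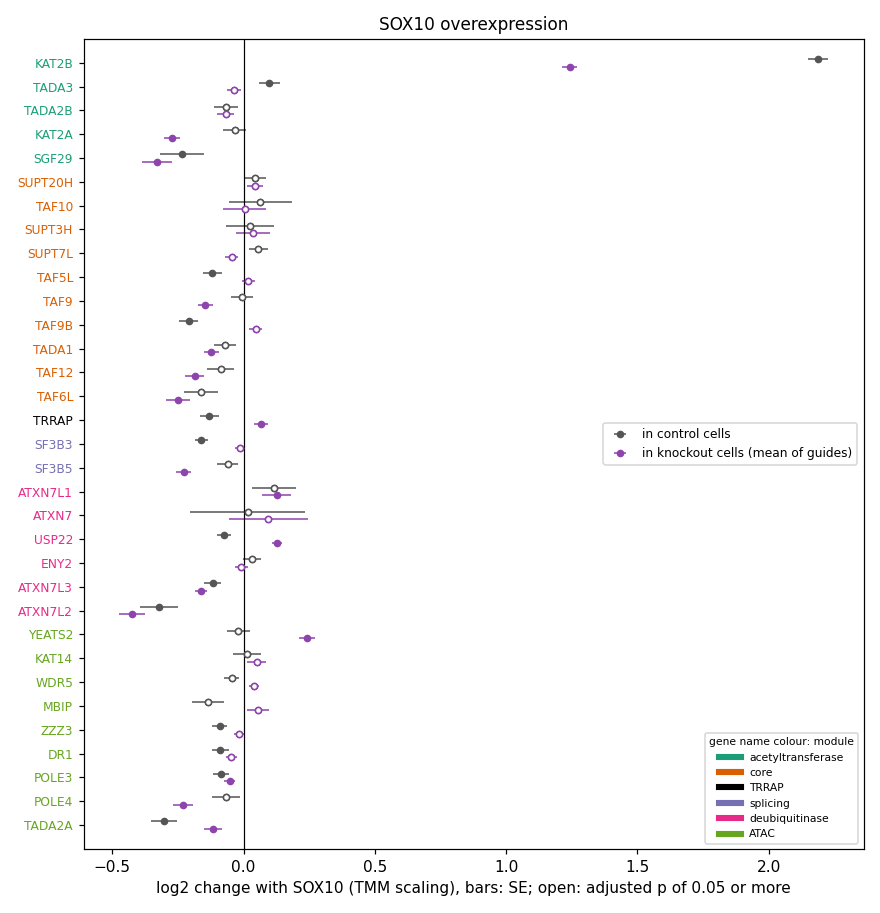
Log2 change with SOX10 overexpression (horizontal axis) in control cells and in knockout cells (mean of both guides) for the 33 subunit genes, grouped by module on the vertical axis; bars are SE and open points did not pass the test. KAT2B stands apart at 2.19 in control and 1.24 in knockout cells, and every other subunit lies between -0.42 and 0.24.

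The interaction term was called for 13 of 33 subunits, 39.4%, against 33.3% of all genes, 8 with a more positive and 5 with a more negative SOX10 effect in the knockout. After KAT2B the largest were YEATS2 (0.26, SE 0.056, adjusted p = 2.26e-04), TAF9B (0.26, SE 0.044, adjusted p = 8.15e-06) and KAT2A (-0.24, SE 0.054, adjusted p = 5.81e-04). TAF9B was lower with SOX10 in control cells and not in the knockout. The interaction of MBIP (0.19) was no longer called with library-size scaling (0.18, adjusted p = 0.0574). The interaction calls of MBIP, TADA3, TAF5L, TAF9 and TADA2A did not hold in every fit that left out 1 library. USP22 had an interaction of 0.20 (SE 0.033, adjusted p = 4.28e-06): with SOX10 it was at 310 to 322 CPM with guide 1 and 280 to 300 with guide 2, above the same lines without SOX10 and below the 351 to 360 CPM of control cells with SOX10.

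The knockout guides were compared with each other directly. Without SOX10, 4 of 33 subunits differed, 12.1%, against 8.74% of all genes: TADA2B was 0.14 higher with guide 2 (log2, adjusted p = 0.0438), TAF5L 0.11 higher (adjusted p = 0.0392), KAT2B 0.15 lower (adjusted p = 0.00842) and SF3B3 0.08 lower (adjusted p = 0.0403). The call of SF3B3 ended with library-size scaling (-0.06, adjusted p = 0.0993). Without guide 1 replicate 1, guide 1 replicate 2 or guide 2 replicate 3, 1 of the 33 was called. KAT2B alone kept its call in every fit that left out 1 library. The largest adjusted p in those fits was 0.268 for TADA2B and 0.213 for TAF5L. With SOX10, 4 subunits differed, 12.1%, where 12.1% of all genes did. KAT2B was 0.56 lower with guide 2 (SE 0.037, adjusted p = 1.70e-15), and ATXN7L1 was 0.28 higher, at 9.89 to 10.7 CPM with guide 2 and at most 8.58 CPM with guide 1. USP22 (-0.14) and ATXN7L3 (-0.11) were lower with guide 2, and the call of ATXN7L3 ended with library-size scaling (-0.09, adjusted p = 0.0815). Without guide 2 with SOX10 replicate 2 the count was 2.

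To set the subunits beside the complexes that share proteins with them, 65 partner genes were followed in the knockout without SOX10. With TMM scaling 12 were higher and 37 lower, 18.5% and 56.9%, against 28.6% and 29.5% of all genes tested. With library-size scaling 32 were higher and 14 lower, 49.2% and 21.5%, against 43.3% and 16.8% of all genes, so the direction of the lists below depends on the scaling. In TREX-2, which shares ENY2, 3 of 5 genes were higher and none lower with TMM scaling, and all 5 were higher with library size. PCID2, its mRNA export subunit, was 0.53 higher (log2, SE 0.028, adjusted p = 1.09e-19), from 88.7 ± 1.93 CPM (SD, n = 3) in control cells to 119 ± 3.81 with guide 1 and 138 ± 4.71 with guide 2. That is a larger change than that of any SAGA or ATAC gene in the same comparison.

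In the MLL/COMPASS methyltransferase complexes, which share WDR5, 6 of 9 genes were lower and 1 higher, and 5 were lower and 3 higher with library-size scaling. SETD1B (-0.40) and KMT2C (-0.36), both methyltransferases, led the falls and held with either scaling. Of 12 TFIID genes 6 were lower and 3 higher, with TAF7 at -0.38 (adjusted p = 1.10e-17), and with library size 2 were lower and 6 higher. Of 17 genes of NuA4/TIP60, the other TRRAP complex, 10 were lower and 2 higher, led by MORF4L2 (-0.33), but with library size 2 were lower and 7 higher. Of the 5 further SF3b genes 4 were lower and 1 higher, with SF3B1 at -0.22, and with library size 1 was lower and 2 higher.

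Among 6 partners of POLE3, POLE4 and DR1, 4 were lower and 1 higher. DRAP1, which pairs with DR1, was 0.53 lower (log2, SE 0.029, adjusted p = 1.24e-19), from 132 ± 4.40 CPM (SD, n = 3) to 93.9 ± 3.22 with guide 1 and 88.4 ± 3.57 with guide 2, and POLE2 was 0.35 higher; both calls held with library-size scaling. Of 8 other acetyltransferases 6 were lower and none higher, among them EP300 (-0.21), CREBBP (-0.21) and NAA60 (-0.40), and with library size 1 was lower and 3 higher. Of 3 genes of the alternative SAGA-type deubiquitinases and their adaptor, USP27X was not called, ATXN7L3B was -0.06, and USP51 was called higher but had a mean of 0.0350 CPM in control cells, with as few as 2 counts in a library, so no fold is given. TAF4B, a TFIID subunit, had the partner interaction nearest to that of KAT2B, with a SOX10 effect of 0.52 in control cells and an interaction of -0.60 (SE 0.053, adjusted p = 2.88e-12); it was singled out after its values were seen.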

How the data were processed

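Gene expression was measured by RNA sequencing (total RNA, a stranded mRNA library kit, per the labels' protocols) in 18 libraries of 6 groups. The deposited table holds raw read counts per Ensembl gene; HISAT2, HTSeq and hg38 are named in the submitters' processing notes, with no version, and neither the gene annotation nor a strandedness option is named there. Symbols came from the supplied gene name table, and coordinates and exon lengths from GENCODE 29. All 33 members matched. The members and the gene lists were chosen with earlier results of these data known. Named members, given with values in every library of the knockout comparison without SOX10, are TADA2B, the paralog sets (TADA2A; KAT2A, KAT2B; TAF9, TAF9B; ATXN7, ATXN7L1, ATXN7L2, ATXN7L3) and, per module, the largest rise and fall past the threshold in the knockout; other genes are named to complete a module or list.

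Counts were tested with edgeR 4.0.16 in R 4.3.3 (filterByExpr, TMM scaling, robust glmQLFit with 6 group means, glmQLFTest, 12 residual degrees of freedom, Benjamini-Hochberg adjusted p under 0.05). Contrasts averaged both guides unless one is named. SE is the log2 change divided by the square root of F. The fit was tested on simulated data. Alternatives were RLE and library-size scaling, DESeq2 1.42.0, no filter, a mean CPM of at least 1, fits of only the groups compared, a replicate block and 18 fits that each left out 1 library; the comparison of the guides with SOX10 was added after seeing the data. Replicates of a group differed by more than sampling noise (chi-square per gene of 3.54 to 11.8). Separate cultures and separate preparations of the same culture could both give this, so it does not tell them apart. Each library was counted as a replicate.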

Additional observations from a re-analysis of the deposited data

Results flagged for a closer look

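The SOX10 effect differed between knockout and control cells for 13 subunits, by the interaction term of edgeR's quasi-likelihood fit. On the log2 scale, as the effect in knockout cells minus that in control cells, the difference was -0.95 for KAT2B, -0.24 for KAT2A, -0.17 for SF3B5, -0.14 for TAF9 and -0.13 for TADA3. It was 0.26 for TAF9B, 0.26 for YEATS2, 0.20 for USP22, 0.20 for TRRAP, 0.19 for TADA2A, 0.19 for MBIP, 0.15 for SF3B3 and 0.14 for TAF5L. The calls of TADA3, TAF5L, TAF9, TADA2A and MBIP did not hold in every fit that left out 1 library.

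The knockout guides differed for 4 subunits without SOX10 and for 4 with it. Guide 2 minus guide 1 was 0.14 for TADA2B, 0.11 for TAF5L, -0.15 for KAT2B and -0.08 for SF3B3 without SOX10. With SOX10 it was -0.56 for KAT2B, -0.14 for USP22, 0.28 for ATXN7L1 and -0.11 for ATXN7L3. Only the calls of KAT2B without SOX10, and of KAT2B and USP22 with it, held in every fit that left out 1 library.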

How the results depend on the processing

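Library-size scaling moved the knockout counts without SOX10 to 19 higher and 4 lower, and those with SOX10 to 20 and 4. Of all genes tested 43.3% were then higher and 16.8% lower without SOX10, and 43.4% and 14.8% with it. This scaling turned the knockout value of KAT2B to 0.01 and of ATXN7L3 to 0.06, and with SOX10 those of SF3B5 and YEATS2 to 0.11 each. The count of subunits higher with SOX10 in the knockout was 3 with RLE scaling, 3 with library-size scaling and 3 with DESeq2. The difference between the guides without SOX10 was called for 2 subunits when only those groups were fitted. Leaving out 1 library at a time gave 10 to 12 higher and 11 to 13 lower in the knockout, 10 to 11 and 11 with SOX10, 1 higher and 8 to 12 lower for SOX10 in control cells (2 to 1 without any of the 6 libraries), 3 to 6 higher (3 without guide 1 with SOX10 replicate 2) and 11 to 13 lower for SOX10 in the knockout, 9 to 14 interactions, and 1 to 3 and 2 to 4 differences between the guides without and with SOX10. Same-numbered replicates did not deviate together (45 correlations from -0.0296 to 0.0711). A fit with the replicate block gave 12 higher and 13 lower in the knockout and 15 interactions, and moved no count by over 1.5 times. The other alternatives left every count within 1.5 times. Low counts limit ATXN7, with 37 to 90 per library, and reads shared with its further annotated record may not have been assigned to either.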
